A study of Homo sapiens and Mus musculus with 16 samples.

Results

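The trefoil factor and CEACAM loci were followed through 4 ATAC-seq region lists, a measurement of open chromatin that relies on a transposase cutting DNA left free of nucleosomes. The members were TFF1, TFF2 and TFF3, which lie side by side on human chromosome 21, and CEACAM7, CEACAM5, CEACAM6 and CEACAM1 on chromosome 19, together with the mouse genes of the same symbol, Tff1, Tff2 and Tff3 on chromosome 17 and Ceacam1 and Ceacam5 on chromosome 7. A region was taken as a member if it overlapped a gene body with 50 kb on each side, and a region near several genes was counted once. By this rule 54 of 118107 regions were members in HPAF-II control (Cas9) cells, 45 of 97047 in HPAF-II HNF4G-KO cells, 21 of 68074 in the KPC primary tumor cell line and 14 of 80843 in the KPC liver mets cell line.

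HPAF-II is an established human pancreatic adenocarcinoma line. The control carried Cas9, the nuclease of the CRISPR system, and the knockout was made with guides against HNF4G, a nuclear receptor that binds DNA, and is a pool of 3 clones. The methods describe these clones as knockouts and the pool as HNF4G-/-, and their frameshift mutations as heterozygotic. The KPC lines came from the autochthonous KPC mouse model of pancreatic cancer. The study calls the primary tumor line and the liver mets line matched and isogenic, and the labels give both as WT and untreated. Each group had 4 replicates, but each deposited list stands for a whole group, so there was no spread between replicates, no p-value could be computed and the intervals below (95%, Wilson) cover counting error only. Sequencing depth is unknown. Region lists do not measure HNF4G transcript or protein, so the knockout was not checked here.

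Trefoil factors are small secreted peptides that are released with mucins and protect and repair mucous surfaces. TFF1 is typical of gastric surface cells, TFF2 of mucous cells of the gastric glands and TFF3 of intestinal goblet cells. CEACAM genes encode cell surface adhesion molecules of the immunoglobulin family. CEACAM5 (CEA, a serum tumor marker), CEACAM6 and CEACAM7 are held in the membrane by a lipid anchor, whereas CEACAM1 spans it and carries inhibitory signaling motifs in its tail. TFF1, TFF2, CEACAM5 and CEACAM6 are commonly used to mark pancreatic tumors of the classical type.

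Sequences of some regions and promoters described below are given first, each 5′ to 3′ along the strand of the named gene, in lower case with consensus matches in capitals. The first is the part of an open region inside an intron of TFF1 (hg38, chr21:42363479-42363649, minus strand) that held the HNF4 consensus CAAAGTCCA, which occurred in no other human member region. The second is the open region upstream of TFF2 (hg38, chr21:42352442-42352665, minus strand) that was in the control list and not in HNF4G-KO, and its capitals mark the AP-1 consensus TGACTCA.
TFF1 intron: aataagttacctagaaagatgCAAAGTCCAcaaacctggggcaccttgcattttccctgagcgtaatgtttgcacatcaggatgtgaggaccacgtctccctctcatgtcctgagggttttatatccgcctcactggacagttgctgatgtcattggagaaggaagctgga
TFF2 upstream: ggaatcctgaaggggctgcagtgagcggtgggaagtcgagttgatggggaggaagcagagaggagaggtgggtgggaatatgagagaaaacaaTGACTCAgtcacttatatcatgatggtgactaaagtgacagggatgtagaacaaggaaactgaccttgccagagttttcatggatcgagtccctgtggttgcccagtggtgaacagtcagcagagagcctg

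In KPC cells the regions at the starts of Tff1 and Ceacam1 were in the primary tumor list and not in mets. The bases directly upstream of the Tff1 start (mm10, chr17:31165278-31165404, minus strand) held none of the 11 consensus sequences searched. Further upstream, the window around the AP-1 match of a region in an intron of the neighboring gene Tmprss3 (mm10, chr17:31183528-31183748, minus strand) is shown with TGACTCA in capitals. The whole Ceacam1 region (mm10, chr7:25477604-25477870, minus strand) lay upstream of the start, and its capitals mark CACGTG, the E-box bound by basic helix-loop-helix factors.
Tff1 start: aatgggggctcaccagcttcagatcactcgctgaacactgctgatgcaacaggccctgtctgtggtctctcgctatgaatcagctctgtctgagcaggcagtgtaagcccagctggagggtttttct
Tmprss3 intron: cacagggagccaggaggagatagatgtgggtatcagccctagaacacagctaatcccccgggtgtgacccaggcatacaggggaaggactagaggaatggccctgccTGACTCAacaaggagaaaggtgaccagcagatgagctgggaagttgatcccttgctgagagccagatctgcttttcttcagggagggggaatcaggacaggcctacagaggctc
Ceacam1 start: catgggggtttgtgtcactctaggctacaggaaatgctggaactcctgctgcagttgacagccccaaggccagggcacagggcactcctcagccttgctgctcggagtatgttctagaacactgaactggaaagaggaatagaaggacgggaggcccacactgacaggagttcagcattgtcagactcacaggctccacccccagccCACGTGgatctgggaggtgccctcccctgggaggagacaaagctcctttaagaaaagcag

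The set of RefSeq promoter sequences at hand (GRCh38.p14) held 4 of the 7 human members and lacked TFF1, TFF2 and TFF3. The human CEACAM promoters are shown because they are close relatives of each other and yet differed in accessibility. They are CEACAM5 (chr19:41708376-41708614, plus strand), CEACAM6 (chr19:41755280-41755529, plus strand), CEACAM7 (chr19:41688338-41688520, minus strand) and CEACAM1 (chr19:42528482-42528731, minus strand), with CACGTG in capitals.
CEACAM5: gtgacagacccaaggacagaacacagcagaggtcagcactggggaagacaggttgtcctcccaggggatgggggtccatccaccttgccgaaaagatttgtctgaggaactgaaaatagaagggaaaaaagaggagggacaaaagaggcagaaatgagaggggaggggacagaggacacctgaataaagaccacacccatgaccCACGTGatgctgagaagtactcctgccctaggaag
CEACAM6: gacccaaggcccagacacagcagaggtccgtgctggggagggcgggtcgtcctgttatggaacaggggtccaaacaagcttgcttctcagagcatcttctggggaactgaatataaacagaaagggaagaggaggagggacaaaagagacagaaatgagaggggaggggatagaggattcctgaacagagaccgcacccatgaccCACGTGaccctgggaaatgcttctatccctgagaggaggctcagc
CEACAM7: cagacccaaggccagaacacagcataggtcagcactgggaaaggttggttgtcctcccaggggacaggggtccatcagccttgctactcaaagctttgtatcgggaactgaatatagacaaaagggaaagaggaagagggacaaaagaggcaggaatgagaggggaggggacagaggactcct
CEACAM1: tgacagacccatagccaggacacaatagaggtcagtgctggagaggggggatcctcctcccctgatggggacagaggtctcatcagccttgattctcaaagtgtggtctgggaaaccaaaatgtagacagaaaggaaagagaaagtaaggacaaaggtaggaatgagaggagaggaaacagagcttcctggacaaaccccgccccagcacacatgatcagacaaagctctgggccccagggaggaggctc
Over the 250 bases before the RefSeq start, pairs of these promoters were between 76.3% (CEACAM1 and CEACAM6) and 84.4% (CEACAM5 and CEACAM7) identical at aligned bases. CACGTG, which was searched only after these sequences had been read, was in the CEACAM5 and CEACAM6 windows and in 7.26% of all 35116 promoter windows of 300 bases.

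How strongly a region was called was read from the rank of its deposited score. The regions of a list were also divided by score into 10 deciles of about equal size. A percentile of 90 means that the score was above that of about 90% of the regions of the same list, and percentiles were compared only within a pair of lists. A region was shared when at least 1 bp overlapped a region of the other list of its pair.

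At the trefoil factor genes in HPAF-II, 15 of 18 control regions were shared with HNF4G-KO and 3 of 18 were in the control list only (16.7%, interval 5.84 to 39.2), against 25.0% of all control regions. Of 17 HNF4G-KO regions, 1 was absent from control (5.88%, interval 1.05 to 27.0), against 6.76% of that whole list. The share of control-only regions on the whole of chromosome 21 was 30.9% and that of KO-only regions 4.67%. The intervals of both shares covered the background. Among the upper 50% of each list, 3 of 9 control regions had no partner above the cut (33.3%, against 22.1% of that list). All 3 were shared in the whole lists, with HNF4G-KO partners that ranked below the cut. With lists of equal size the control-only share was 6.67% (1 of 15, against 15.1%). Of the HNF4G-KO regions, 2 of 17 then had no partner in the cut control list (11.8%, against 12.7%).

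TFF1, the gastric surface trefoil peptide, had an open start in both conditions. The region over its start (chr21:42366409-42367054) had a percentile of 74.0 in control and 76.7 in HNF4G-KO. The region inside the gene (chr21:42363303-42363655, centered in an intron), which holds the HNF4 match printed above, had a percentile of 74.2 in control and 80.9 in HNF4G-KO, where it was called as a wider region of 584 bp against 353 bp. Both ranked slightly higher without HNF4G. HNF4 consensus sequences were in 1.60% of all control regions.

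TFF2, made by mucous cells of gastric glands, had the largest rise of the trefoil cluster at its start. Its start region (chr21:42350989-42351548) had a percentile of 23.1 in control and 46.1 in HNF4G-KO, a rise of 23.0 percentile points that was higher than the change of 97.9% of all shared control regions and of 92.9% of those in the same decile of control scores. The neighboring region 6397 bp upstream (chr21:42357394-42357630) also ranked higher, from 12.5 to 26.8. Between them, 1445 bp upstream of TFF2, the region printed above (chr21:42352442-42352665) was in the control list at a percentile of 27.3 and was not in the HNF4G-KO list, so neighboring regions at TFF2 went in both directions. In that decile of control scores 50.02% of all regions were control-only. Inside TFF2, a control region at 57.2 (chr21:42347171-42347875) corresponded to 2 HNF4G-KO regions, at 53.5 and 24.3.

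TFF3, the goblet cell trefoil peptide, had no region within 1 kb of any of its starts in either list. The nearest was 3692 bp from a start (chr21:42309479-42309994), with a percentile of 23.1 in both. The steepest fall among the shared regions of the cluster was at a region upstream of TFF3 (chr21:42319893-42320297), which went from 28.5 to 1.31. Its change was lower than that of all but 0.425% of shared regions in its decile of control scores. That ranking leaves out the 50.02% of control regions in this decile that were control-only. Next in size were a region in an intron of ABCG1, a lipid transporter gene that follows TFF3 (chr21:42292219-42292572, 28.3 to 7.41), and a region in an intron of TMPRSS3, a membrane protease gene upstream of TFF1 (chr21:42385070-42385549, 55.9 to 35.3). A region between TFF3 and TFF2 (chr21:42337872-42338180) went from 57.0 to 36.8. Of the 15 shared trefoil regions 5 ranked higher in HNF4G-KO, namely both at TFF1, the TFF2 start, the region 6397 bp upstream of TFF2 and, by 0.029 points, the region nearest to TFF3.

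**Figure D1:**
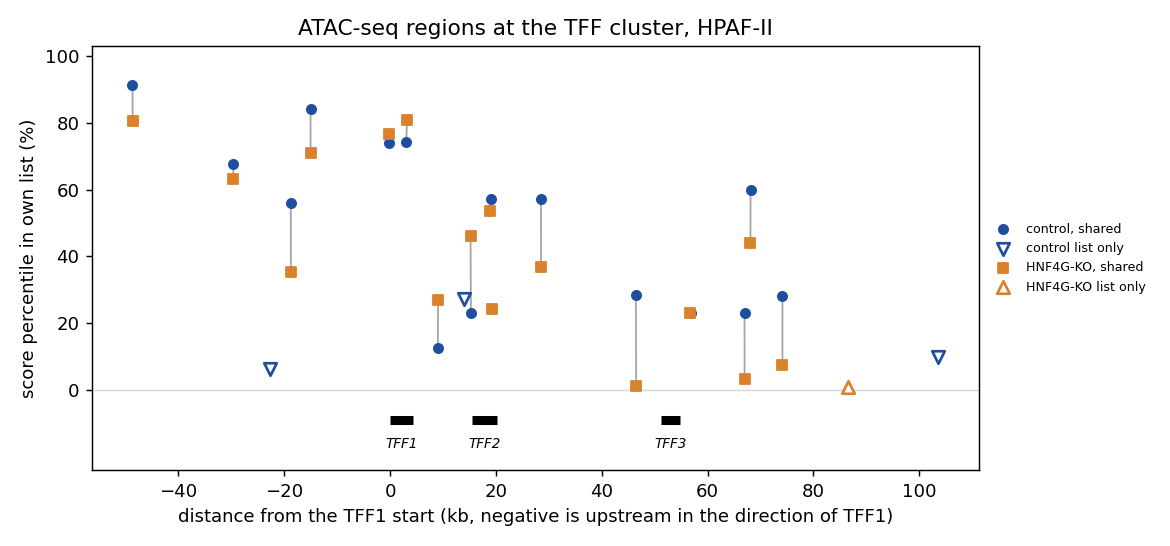
Score percentile (vertical axis, %) of every region at TFF1, TFF2 and TFF3 by the distance of its center from the TFF1 start (horizontal axis, kb), with control as circles, HNF4G-KO as squares, a gray line joining a control region to its partner, and open triangles for regions in 1 list. Bars below mark the gene bodies, and the 2 regions of TFF1 stay above 70 in both lists while the start of TFF2 moves from 23.1 to 46.1.

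The highest-ranked trefoil regions of the control list were in introns of the neighboring genes UBASH3A (chr21:42414877-42415580, 91.3 in control and 80.6 in HNF4G-KO) and TMPRSS3 (chr21:42381390-42381750, 84.1 and 71.1), followed by the region inside TFF1. In HNF4G-KO the region inside TFF1 ranked first at 80.9. The remaining control-only regions were weak, a region in ABCG1 at a percentile of 9.77 (chr21:42262809-42263018) and 1 at a start of TMPRSS3 at 6.42 (chr21:42389146-42389431). The single KO-only region lay in an intron of ABCG1 at 0.786 (chr21:42279812-42280120).

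Over the 15 shared control regions of the trefoil cluster, 10 ranked lower in HNF4G-KO (66.7%, interval 41.7 to 84.8), against 70.0% of all shared control regions, and the median change was -10.7 percentile points against -4.65. The control list is longer and its extra regions are mostly weak, which shifts percentiles. When percentiles were taken among shared regions alone, 8 of 15 ranked lower (53.3%), against 46.6% of all shared control regions, and the median change was -6.89 against 0.676.

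At the CEACAM genes, 30 of 36 control regions were shared and 6 were control-only (16.7%, interval 7.87 to 31.9, against the same 25.0%). None of the 28 HNF4G-KO regions was KO-only (upper limit of the interval 12.1%). With lists of equal size 2 of 28 had no partner in the cut control list (7.14%, against 12.7% of that list). On the whole of chromosome 19, 20.0% of control regions were control-only and 4.51% of HNF4G-KO regions KO-only.

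The starts of the 4 CEACAM genes were unlike each other despite their related promoter sequences. The RefSeq promoter windows of CEACAM1 and CEACAM6 each overlapped 1 region in both lists, whereas those of CEACAM5 and CEACAM7 overlapped none in either. CEACAM5, the gene for CEA, had no region within 1 kb of any of its 6 annotated starts. The nearest was 1160 bp away and lay over another, more distant start of CEACAM7 (chr19:41706699-41707425). That region ranked at 83.8 in control and 69.0 in HNF4G-KO, 1 of the 3 largest falls of the cluster, and held a match to the CTCF consensus.

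The start region of CEACAM6 (chr19:41755308-41755641), which holds the CACGTG of the printed promoter, had the largest fall of the CEACAM cluster, from 49.3 to 27.7. Of all shared control regions, 12.9% had a lower change, and of those in the same decile of scores, 25.1%. Beside it, a region 1418 bp inside CEACAM6 (chr19:41756948-41757496) was in control at 37.6 and was not called in HNF4G-KO, and the next, 3120 bp inside (chr19:41758650-41759240), went from 61.1 to 49.5. A region 3799 bp upstream of CEACAM6 (chr19:41746638-41747178) went from 73.7 to 61.7. From there into the gene, the 4 consecutive control regions at CEACAM6 thus either ranked lower or were missing in HNF4G-KO, as 70.0% of all shared control regions and 25.0% of all control regions did. In the decile of the missing region 35.1% of control regions were control-only.

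The highest-ranked CEACAM regions differed in direction. The top region (chr19:41774153-41775362, 18623 bp past the CEACAM6 start) had percentiles of 98.5 and 98.9. A region between CEACAM5 and CEACAM6 (chr19:41734279-41735794) had 94.2 and 95.8, and a region within CEACAM3, a granulocyte CEACAM that follows CEACAM6 (chr19:41799247-41799982), had 89.4 and 91.1. A region 12312 bp downstream of a CEACAM1 start (chr19:42497518-42498772) had 91.0 and 87.0, a fall whose place among regions of its decile (25.0% had a lower change) was like that of the CEACAM6 start.

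CEACAM1, the member with a signaling tail, had 2 regions near its RefSeq start that moved in opposite directions. The region over the start (chr19:42528321-42529142) went from 79.5 to 70.8, and the region just upstream (chr19:42529259-42529744) went from 56.1 to 62.3. In the window of CEACAM1, 4 of 15 control regions were control-only (26.7%, against 25.0%), at percentiles of 9.22 (chr19:42542726-42543157), 13.7 (chr19:42479002-42479218), 26.2 (chr19:42567092-42567313) and 41.2 (chr19:42601863-42602176). The last lies near CEACAM8, in a decile of scores where 18.6% of control regions were control-only. The sixth, at 30.3, followed CEACAM3 (chr19:41813533-41813773).

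**Figure D2:**
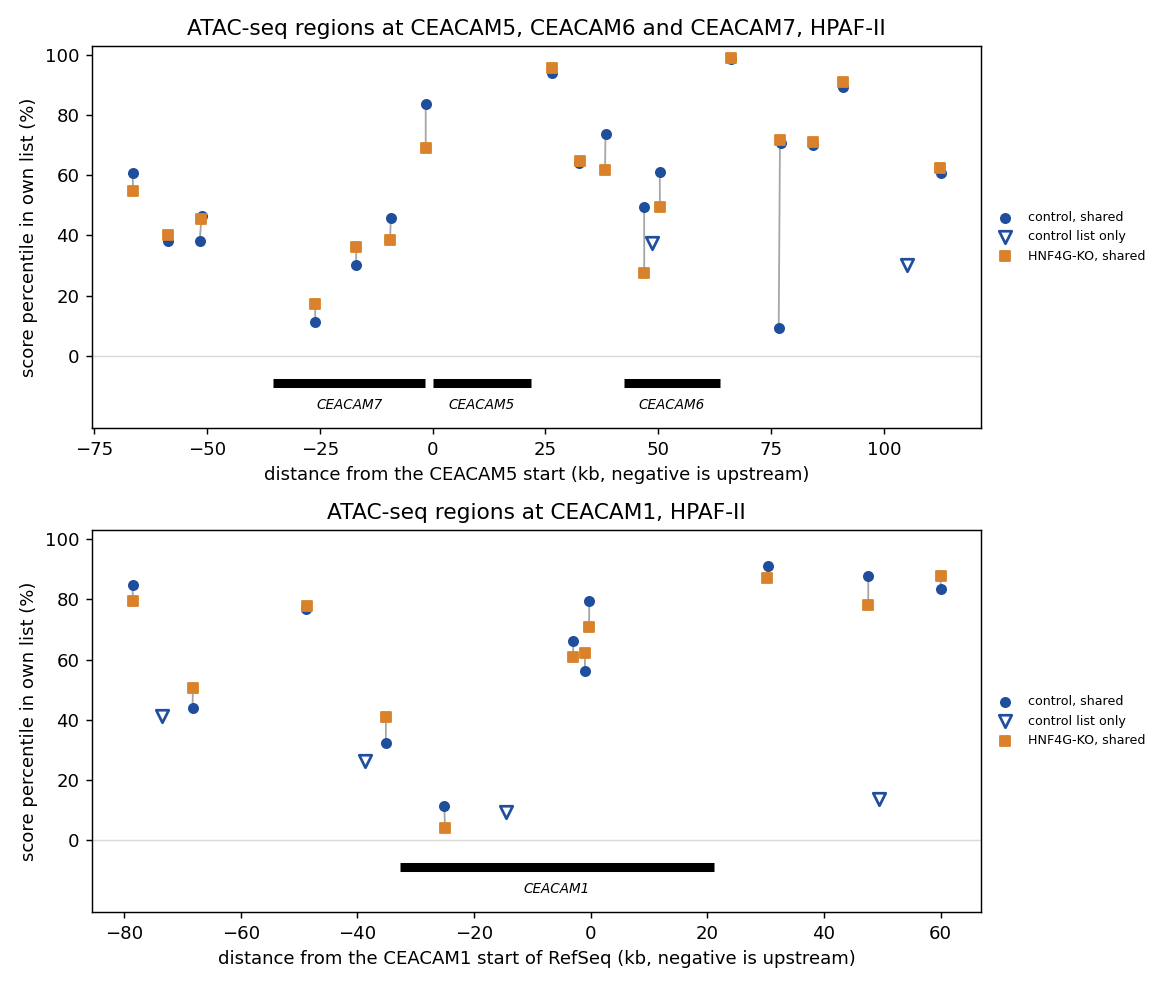
Score percentile (vertical axis, %) of every region at CEACAM5, CEACAM6 and CEACAM7 (upper panel) and at CEACAM1 (lower panel) by the distance of its center from the named start (horizontal axis, kb), with the marks as for the trefoil genes. The regions at the CEACAM6 start lie lower in HNF4G-KO (49.3 to 27.7 at the start), while the regions above 90 stay above 85.

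The largest rise of the CEACAM cluster came from how regions were joined. A weak control region at 9.22 (chr19:41785150-41785439) was paired with an HNF4G-KO region at 71.8 (chr19:41785216-41785939) that also spanned the next control region, itself at 70.6, and the rise of 62.6 points reflects that pairing. The others were a region upstream of CEACAM1 (chr19:42563479-42563697, 32.4 to 40.8) and a region past the 3′ end of CEACAM7 (chr19:41656817-41657093, 38.1 to 45.4). The latter was also joined with its neighbor in HNF4G-KO. These rises of 8.44 and 7.26 points exceeded the changes of 90.7% and 89.3% of all shared control regions, and among shared regions alone they were 19.8 and 19.6 points. Over all 30 shared control regions, 13 ranked lower in HNF4G-KO (43.3%, interval 27.4 to 60.8) against 70.0%, with a median change of 0.68 percentile points. Among shared regions alone, 9 of 30 ranked lower (30.0%) against 46.6%, and the median change was 5.91. The interval of the first share lay below its background, and that of the second (16.7 to 47.9) included it. The first share depended on the window. It was 56.25% (9 of 16) with 10 kb on each side and 58.7% (27 of 46) with 100 kb, both against 70.0%.

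All 5 HPAF-II members with a region within 1 kb of a start in control (TFF1, TFF2, CEACAM1, CEACAM6 and CEACAM7) kept one in HNF4G-KO, whereas 3.59% of protein-coding genes with such a region in control had none in HNF4G-KO. The number of control regions at a member ranged from 11 (CEACAM5) to 15 (TFF2 and CEACAM1), and from 10 to 14 in HNF4G-KO, against medians of 10 and 9 over protein-coding genes.

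The KPC lines gave a different picture. At the trefoil genes, 5 of 13 primary tumor regions were absent from mets (38.5%, interval 17.7 to 64.5), against 8.51% of all primary tumor regions and 10.5% of those on chromosome 17. At Ceacam1, 3 of 8 were (37.5%, interval 13.7 to 69.4), against 7.55% on chromosome 7. These 3 were all in the lowest decile of scores, where 38.7% of all primary tumor regions were tumor-only. None of the 8 mets regions at the trefoil genes (upper limit 32.4%) and none of the 6 at Ceacam1 (upper limit 39.0%) was mets-only, against 20.2% of all mets regions. With lists of equal size 8 of 13 tumor regions at the trefoil genes had no partner in the cut mets list (61.5%, against 15.6% of the list). Among the upper 50% of each list 1 of 4 tumor regions had no partner above the cut (25.0%, against 8.46%). The same held for 1 of 4 Tff regions of mets (25.0%, against 22.2%). That mets region (chr17:31187433-31187753, 64.9) was shared in the whole lists, with a tumor partner at 40.6. With windows of 100 kb the tumor-only share at Ceacam1 was 22.2% (4 of 18), and mets-only regions were 1 of 10 at the trefoil genes and 2 of 17 at Ceacam1. Mouse Ceacam5 had no region within 50 kb in either list.

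**Figure D3:**
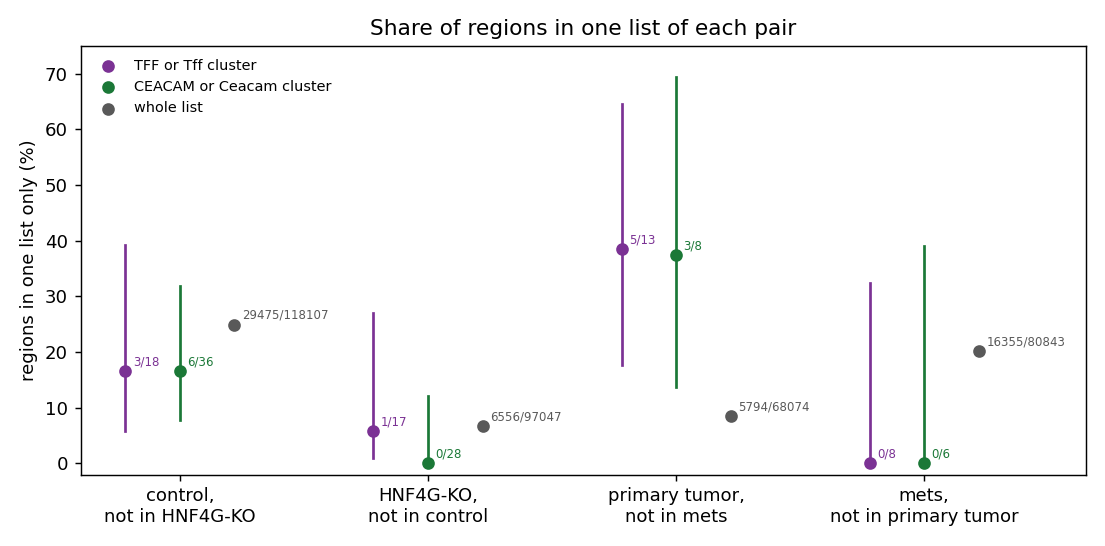
Percentage of regions in only 1 list of a pair (vertical axis), for the trefoil cluster, the CEACAM cluster and the whole list, with 95% Wilson intervals as vertical lines and counts beside the points. The HPAF-II clusters lie near their lists, whereas both KPC clusters lie at 38.5% and 37.5% in the primary tumor, above 8.51%, and at 0 in mets. The tumor-only regions at Ceacam1 are all in the lowest decile of scores, where 38.7% of primary tumor regions are tumor-only.

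The start region of Tff1 (chr17:31164960-31165404) had a percentile of 41.1 in the primary tumor, where 3.27% of regions in the same decile of scores were tumor-only. It was followed upstream by 4 further tumor-only regions with no other region in between. They had percentiles of 33.9, 8.91 (chr17:31172785-31173030), 22.1 (chr17:31175153-31175409) and, in an intron of Tmprss3, 57.0 (chr17:31183147-31184113). In the decile of the last, 1.58% of primary tumor regions were tumor-only. The 5 formed 1 run of neighbors. In the whole primary tumor list there were 5135 runs of neighboring tumor-only regions, 99 of at least 3 regions and 6 of at least 5, and the longest had 7. In mets the gap without a region measured 24266 bp.

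Inside the gene the opposite was seen. A region over an exon of Tff1 (chr17:31162181-31163188) ranked at 84.2 in the primary tumor and at 96.7 in mets. Its change was higher than that of 75.1% of all shared primary tumor regions and of 98.7% of those in its decile of scores. This exon region was the highest-ranked trefoil region of both lists. At the far end of the gap, a region in Tmprss3 (chr17:31187437-31187743) went from 40.6 to 64.9. The tumor-only stretch was therefore bordered on both sides by regions that ranked higher in mets, as did 40446 of all 62280 shared primary tumor regions.

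Tff2 and Tff3 had no region within 1 kb of a start in either list. Between Tff2 and Tff3 a pair of regions changed little (chr17:31138264-31138756, 50.8 to 52.4, and chr17:31133592-31134151, 65.0 to 71.2), and a weak region near the Tff3 start went from 10.9 to 13.3 (chr17:31131389-31131631). Only 2 shared trefoil regions ranked lower in mets, 1 between Tff1 and Tff2 (chr17:31155579-31156133, 27.0 to 2.15) and 1 beyond Tff3 (chr17:31121952-31122297, 20.3 to 2.58). The change of the first was lower than that of all but 0.426% of shared regions in its decile. That ranking leaves out the 12.1% of primary tumor regions in this decile that were tumor-only. The last shared region, near Abcg1, went from 24.0 to 38.9 (chr17:31119503-31119785). That is 2 of 8 (25.0%, interval 7.15 to 59.1), against 35.1% of all shared primary tumor regions. Among shared regions alone it was 3 of 8 (37.5%), against 45.4%.

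The Ceacam1 start region printed above (chr7:25477604-25477870) was among the weakest of the primary tumor list, with a percentile of 1.24. The other tumor-only regions at Ceacam1 were also weak, at 6.42 (chr7:25436148-25436590) and 3.03 (chr7:25436703-25437034). All 3 were in the lowest decile of scores, where 38.7% of all primary tumor regions and 3 of the 4 at Ceacam1 were tumor-only. The next region, 1873 bp upstream of the Ceacam1 start (chr7:25479476-25479785), was shared and went from 7.92 to 19.3. The strong regions were kept. They had 82.7 and 89.5 (chr7:25410939-25412296, joined from 2 mets regions, of which the other had 24.7), 83.0 and 77.5 (chr7:25429854-25430862), 85.1 and 80.9 (chr7:25509948-25510590), and 64.7 and 73.4 (chr7:25424339-25424808). Of the 5 shared regions 2 ranked lower in mets (40.0%, interval 11.8 to 76.9), by either scale.

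**Figure D4:**
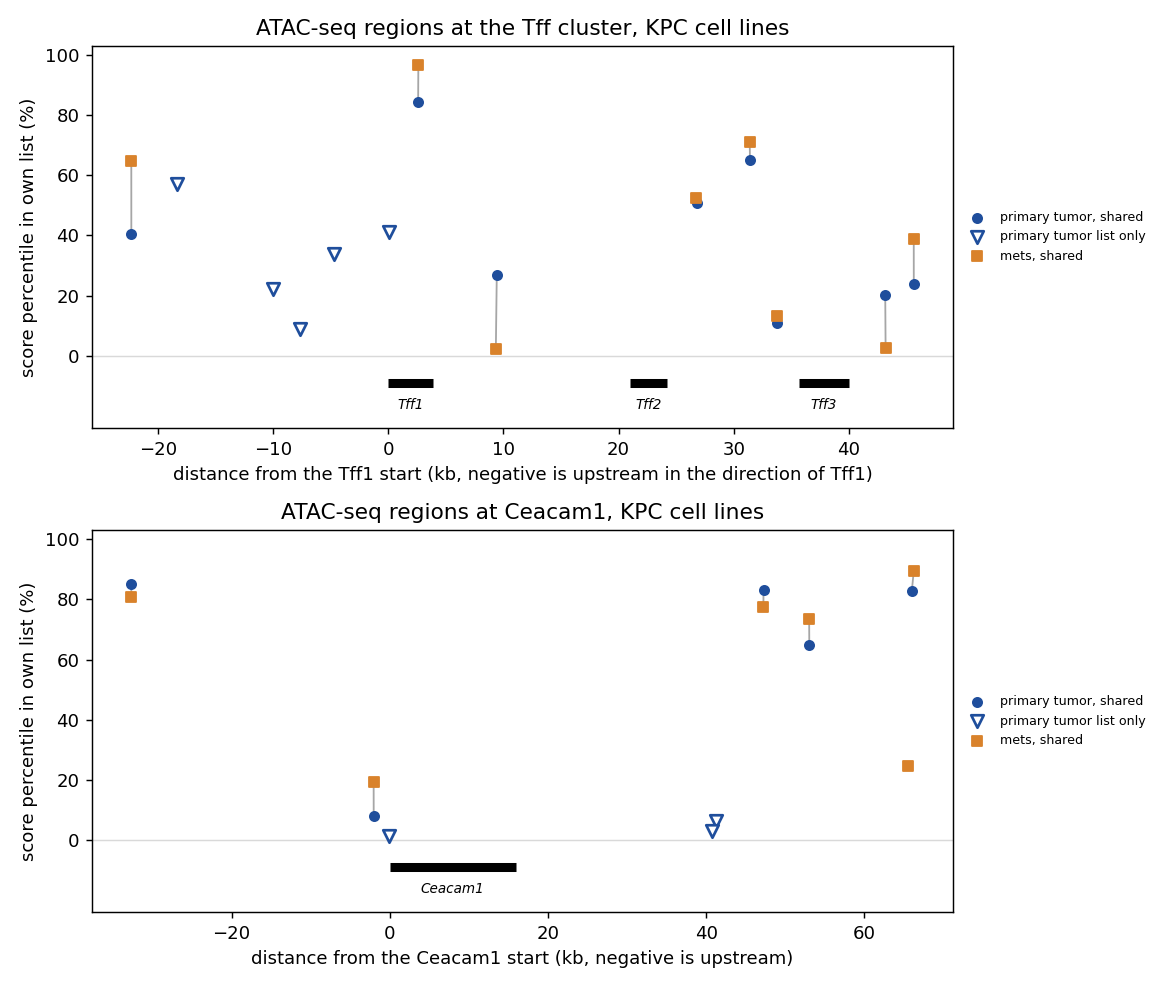
Score percentile (vertical axis, %) of every region at Tff1, Tff2 and Tff3 (upper panel) and at Ceacam1 (lower panel) by the distance of its center from the Tff1 or Ceacam1 start (horizontal axis, kb), with the primary tumor as circles, mets as squares and open triangles for tumor-only regions. The 5 tumor-only trefoil regions follow each other from the Tff1 start into Tmprss3, and the 3 at Ceacam1 lie below a percentile of 7.

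Tff1 and Ceacam1 were the only mouse members with a region within 1 kb of a start in the primary tumor, and neither had one in mets, whereas 1.83% of protein-coding genes with such a region in the primary tumor had none in mets. That share was not matched for score. The Ceacam1 start region was in the lowest decile, where 38.7% of primary tumor regions were tumor-only, and the Tff1 start region in a decile where 3.27% were. By number of regions, Tff1 stood at the 83.6th percentile of protein-coding genes in the primary tumor, with 13 regions, and at the 53.0th in mets, with 8. In HPAF-II its human counterpart stood at the 67.8th in control and the 71.6th in HNF4G-KO.

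Each member region was searched in full, on either strand, for 11 consensus sequences, namely CAAAGTCCA for HNF4, TGTTTAC for forkhead factors (FOXA), AGATAAG for GATA factors, TGACTCA for AP-1, ACATTCCA for TEAD, CCGGAAGT for ETS, GGGNGTGGC for KLF, TGTGGTTT for RUNX, CACGTG for the E-box, and those of HNF1 and CTCF by name. No TFF or Tff region of any list held the FOXA or GATA letters, which were in 9.76% and 6.63% of all control regions. Of the control CEACAM regions, 4 of 36 held each, among them the region between CEACAM5 and CEACAM6 at 94.2 and the top region past CEACAM6, which both held GATA, and no CEACAM or Ceacam region held the HNF4 letters. AP-1 was in 5 of 18 control TFF regions (27.8%, against 31.4% of all control regions) and in 6 of 13 primary tumor Tff regions (46.2%, against 38.3%), including 3 of the 5 tumor-only regions. CTCF was in 3 of the 8 mets Tff regions, against 5.22% of all mets regions. The E-box was in 2 of 36 control CEACAM regions (5.56%) and 4 of 18 control TFF regions (22.2%), against 9.49% of all control regions. In the primary tumor it was in 2 of 8 Ceacam regions (25.0%) and 1 of 13 Tff regions (7.69%), against 10.0% of that list. A match is a string of letters and was not tested for binding.

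Other CEACAM genes and genes of mucous secretion were counted in the same way. At the 8 other CEACAM genes (CEACAM3, CEACAM4, CEACAM8, CEACAM16, CEACAM18, CEACAM19, CEACAM20 and CEACAM21), 13 of 78 control regions were control-only (16.7%, against 25.0%), 2 of 66 HNF4G-KO regions were KO-only (3.03%, against 6.76%), and 44 of 65 shared regions ranked lower in HNF4G-KO (67.7% against 70.0%, or 53.8% against 46.6% among shared regions alone). Windows of CEACAM3, CEACAM4 and CEACAM8 hold regions of the members too. At 14 partners of mucous secretion, among them the gel-forming mucins MUC5AC, MUC5B, MUC6 and MUC2 and the disulfide isomerase AGR2 that helps fold them, 30 of 150 control regions were control-only (20.0%, against 25.0%), 9 of 133 HNF4G-KO regions were KO-only (6.77%, against 6.76%), and 76 of 120 shared regions ranked lower (63.3% against 70.0%, or 34.2% against 46.6% among shared regions alone). MUC5AC, the mucin that is released with TFF1, had 1 control-only region of 10 and 2 KO-only regions of 11.

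In KPC cells the mucous partners held 7 tumor-only regions of 96 (7.29%, against 8.51% of the list) and 19 mets-only regions of 113 (16.8%, against 20.2%), and 34 of 89 shared regions ranked lower in mets (38.2%, against 35.1%). The 5 other Ceacam genes found by symbol held 2 tumor-only regions of 31 (6.45%) and 3 mets-only regions of 32 (9.38%), and 9 of 29 shared regions ranked lower (31.0%), beside the same list shares. Muc5ac had 2 regions in the primary tumor and 7 in mets, of which 6 were mets-only. Of the 2 primary tumor regions 1 was tumor-only. Muc5b had 3 mets-only regions of 5, Muc2 had 3 of 6, Muc6 had 1 of 5 and Muc1 none of 25. The mucin genes thus differed among themselves, and Muc5ac is named for its count.

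Cell type markers were read as the presence of a region within 1 kb of a start. All 5 epithelial markers (EPCAM, KRT8, KRT18, KRT19 and CDH1) had one in every list, at top percentiles between 54.2 and 94.5 (control), 54.0 and 98.2 (HNF4G-KO), 16.1 and 58.1 (primary tumor) and 13.9 and 65.9 (mets). Among hepatocyte markers, ALB and APOA1 had none in any list. TTR (46.9 in control and 35.0 in HNF4G-KO) and SERPINA1 (91.6 and 91.2) had one in both HPAF-II lists. In KPC cells Ttr had one in the primary tumor alone (30.9), and none of the 4 had one in mets. Among leukocyte markers, PTPRC and CD3E had none in any list. Among fibroblast and endothelial markers, COL1A1 had one in every list (86.7 in control, 94.1 in HNF4G-KO, 75.8 in the primary tumor and 79.8 in mets). PDGFRB had one in both HPAF-II lists (82.4 and 84.4), Pecam1 in both KPC lists (84.3 and 70.4) and CDH5 in none. In both KPC lists Col1a1 and Pecam1 ranked above every epithelial marker. In HPAF-II COL1A1, PDGFRB and SERPINA1 ranked above KRT18 and KRT19 and below EPCAM.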

How the data were processed

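ATAC-seq was performed on 16 samples in 4 groups of 4 replicates, assigned from their titles. The study describes Omni-ATAC on HPAF-II. The submitters' processing notes name Bowtie2 2.2.6, MACS2 2.1.1.20160309 and DiffBind, with builds hg38 and mm10, without saying how replicates were combined. The authors deposited 1 list of regions per group with a score per region whose scale is not stated, so the score was used only as a rank, as a percentile of its own list. No region reached past a chromosome end in these builds. Per-replicate values were not analysed here, the depth is unknown, and a longer list holds more weak regions, so that region counts mix accessibility with calling power. No column was left unmapped (0).

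Genes and starts came from GENCODE v44 (human) and vM21 (mouse). Regions overlapping a gene body with 50 kb on each side were members. Each was paired with the region of the other list with the longest overlap, of at least 1 bp. Percentile changes were read against all shared regions, and one-list shares against the whole list and the same decile of scores. Python 3.11.15, pandas 2.3.3, numpy 2.4.6, scipy 1.17.1 and matplotlib 3.10.9 were used, and the pairing was tested on simulated data. Described singly were every start-site and one-list region of a member, the 3 highest-scoring regions per cluster and list, and the 3 largest falls and rises per cluster and pair. Further member regions next to these, and the E-box, were chosen after their values were seen. The members, the other CEACAM genes, the mucous partners, the markers and the consensus sequences were chosen with earlier results of these data known. No test was run, since each list stands for a whole group. A leukocyte marker and the position and sequence of a region upstream of Tff1 are not reported here.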

Additional observations from a re-analysis of the deposited data

How the results depend on the processing

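The settings varied were windows of 10 and 100 kb, at least 50% of the region itself covered, slack of 500 bp and equal list sizes. Also used were the upper 50% of each list, percentiles among shared regions and, added after the data were seen, pairs that match 1 to 1. Together they gave 80 alternative values, of which 73 lay within the interval of the reported value and 7 outside. With 10 kb windows the KO-only share at the trefoil genes was 0.0% (0 of 9, against 6.76% of the list), the share of their shared regions that ranked lower 37.5% (3 of 8, against 70.0%), and that at Ceacam1 in KPC 0.0% (0 of 1, against 35.1%). In the upper 50% of each list the KO-only trefoil share was 0.0% (0 of 6, against 4.38%), the control-only CEACAM share 5.26% (1 of 19, against 22.1%), the tumor-only Ceacam1 share 0.0% (0 of 4, against 8.46%) and the share of shared Tff regions that ranked lower in mets 0.0% (0 of 3, against 36.35%). The smaller windows and lists hold fewer regions by construction, and in cut lists a region whose partner fell below the cut also counted as in 1 list. No paired analysis was possible because each list stands for a whole group, and no replicate could be left out for the same reason. The unknown depth limits every one-list count.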
